A study of Homo sapiens with 10 samples.

Results

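The TSC22 domain genes TSC22D1, TSC22D2, TSC22D3 and TSC22D4 were followed in all 10 transcriptomes of the series. They were found by gene symbol and are 4 of the 23426 genes in every file. The family was chosen by the FPKM of TSC22D1, already known to be higher after PKC412 in MDA-MB-468 cells, so the members' values in that contrast, and in the difference between the lines that contains it, are given below as a description, without a test. PKC412 (midostaurin) is an inhibitor of many protein kinases. The breast cancer cell lines used were MDA-MB-468, which is basal-like, and ZR75-1, which is luminal, both long established. Each line was kept for 6 h in DMSO, the solvent (2 samples), or in 1 μM PKC412 (3 samples). No other agent or genetic change is named for any group, and each group is 1 cell line, not several lines of a subtype. Some figure legends of the study give a lower dose than its methods and the sample labels, and the methods speak of triplicates, while 2 DMSO samples per line were analysed here. Nothing in the labels says that the samples of a group were separate cultures, so the p-values below measure the spread between these samples, which may be technical.

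TSC22 proteins share a short conserved stretch, the TSC box, next to a leucine zipper through which they pair with each other. TSC22D1 was first found as a transcript induced by transforming growth factor beta. TSC22D3, also called GILZ, is a well-known target of the glucocorticoid receptor and of FOXO transcription factors, the nuclear effectors that the kinase AKT holds in the cytoplasm. TSC22D4 pairs with the other members, and TSC22D2 is the least studied. TSC22D1 and TSC22D3 are made as long and short isoforms from different starts. Long TSC22 proteins bind the pseudokinase NRBP1 and the WNK kinases, which control ion cotransporters and cell volume.

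On GRCh38 (GENCODE 29), TSC22D1 lies at chr13:44432143-44577147 on the minus strand, TSC22D2 at chr3:150408335-150466431 on the plus strand, TSC22D3 at chrX:107713221-107777342 on the minus strand and TSC22D4 at chr7:100463359-100479279 on the minus strand. The authors aligned to hg19, so these positions name the loci and were not used to read their files. The deposited value is per gene: the long and short isoforms cannot be told apart. In this annotation TSC22D1 has 13 transcripts, TSC22D2 has 6, TSC22D3 has 17 and TSC22D4 has 6. An antisense gene, TSC22D1-AS1, overlaps TSC22D1 and was at 0.08134 FPKM or less in every sample. C7orf61 overlaps TSC22D4 on the same strand and ranged from 0.09567 to 0.6281 FPKM, far under TSC22D4. The sources do not say whether the counting used strand.

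The RefSeq promoter table (GRCh38.p14) holds 10 windows before annotated starts of 3 members: 5 for TSC22D1, 4 for TSC22D3 and 1 for TSC22D4. TSC22D2 has no entry. The 250 bases before each start were searched on both strands for the FOX site TGTTTAC, the cAMP response element core TGACG, the glucocorticoid response element (GNACA and TGTNC, 3 bases apart), the AP-1 site TGANTCA and the TATA box TATAAA. The stretches shown belong to TSC22D1 and TSC22D3, the members whose PKC412 samples lay apart from their DMSO samples, and carry a match outside annotated exons. Samples that lay apart, with PKC412 higher, were found for 39.6% of all genes tested in MDA-MB-468 and for 14.8% in ZR75-1. Capitals mark the matches. The TSC22D3 stretch lies before an internal start and ends 73 bases short of it, where the first exon of a further transcript begins. The inner TSC22D1 stretch ends 97 bases short of its start for the same reason.
TSC22D3, chrX:107717136-107717312, minus strand: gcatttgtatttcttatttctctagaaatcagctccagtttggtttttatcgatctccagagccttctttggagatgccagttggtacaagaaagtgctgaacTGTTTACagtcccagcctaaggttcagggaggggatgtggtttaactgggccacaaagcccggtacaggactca
TSC22D1, chr13:44474342-44474591, minus strand: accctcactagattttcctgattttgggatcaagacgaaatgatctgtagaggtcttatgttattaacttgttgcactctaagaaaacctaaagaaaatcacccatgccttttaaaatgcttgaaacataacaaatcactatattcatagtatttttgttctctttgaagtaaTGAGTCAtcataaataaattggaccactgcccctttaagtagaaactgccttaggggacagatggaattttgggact
TSC22D1, chr13:44437346-44437498, minus strand: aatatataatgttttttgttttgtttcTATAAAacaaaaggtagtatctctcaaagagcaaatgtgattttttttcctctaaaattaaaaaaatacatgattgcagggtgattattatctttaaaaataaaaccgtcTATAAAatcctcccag

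The FOX site of TSC22D3 begins 147 bases before that internal start. Of the 35116 windows in the table, 2.98% hold this site. This share and those below are per window, while 5 windows were searched for TSC22D1 and 4 for TSC22D3. A match in at least 1 window of such a gene is therefore more common than the share. The same window has TGACG at 60 and at 50 bases and TATAAA at 29 bases before the start, in the part not shown. TGACG occurs in 21.2% of all windows, and at 2 or more places in 4.76%. The AP-1 site of TSC22D1 begins 77 bases before an internal start, and 6.57% of windows hold such a site. TATAAA occurs in 10.7% of windows. In TSC22D1 it begins 223 and 113 bases before the start that follows the inner stretch, as shown. It also stands 28 bases before the second of the distal starts of TSC22D1. The second of the distal TSC22D3 starts has TGACG on the opposite strand, 123 bases before it. In the direction of transcription, the first and the last window of TSC22D1 and of TSC22D3 hold no match. The single TSC22D4 window holds none of the 5 motifs, and no member window holds the glucocorticoid response element, which 0.327% of windows do. A match is a match of letters and not a shown binding site.

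Before the members, the cells were checked against markers of each line. The summed FPKM of 8 basal markers was 2453 to 2705 in the MDA-MB-468 samples and 20.05 to 26.22 in the ZR75-1 samples, and 7 of the 8 were higher in MDA-MB-468. CDH3, a placental cadherin used as a basal marker, was the exception (log2 difference between the lines in DMSO -0.95). The 9 luminal markers were all higher in ZR75-1, with sums of 10310 to 15430 against 1909 to 3535. PGR, the progesterone receptor gene, was listed at 0 in MDA-MB-468. No number of reads can be recovered from these FPKM, so the depth behind each value is unknown. The samples summed to between 599228 and 835069 FPKM.

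TSC22D3 was the most abundant member in every sample and was higher after PKC412 in both lines. In MDA-MB-468 it was at 83.77 and 84.89 FPKM in DMSO and at 210.4, 199.3 and 210.0 FPKM in PKC412. The 3 treated samples lay close together, far above both controls. In ZR75-1 it was at 57.53 and 63.12 FPKM in DMSO and at 110.4, 126.7 and 108.5 FPKM in PKC412. Here too every treated sample lay above both controls. In bulk RNA, a higher level in each cell and more cells with a high level cannot be told apart. The mean rose from 60.3 ± 3.95 (SD, n = 2) to 115 ± 10.0 FPKM (SD, n = 3) in ZR75-1, a ratio of 1.91. On the scale of log2(FPKM + 1), on which folds of low genes are understated, the difference in ZR75-1 was 0.92 (SE 0.10, limma adjusted p = 0.0065). TSC22D3 was the 1 member of 4 that passed the test in ZR75-1, where 0.946% of all 16071 genes tested did and 0.747% did upward. This call was lost without ZR75-1 DMSO replicate 1 (0.85, limma adjusted p = 0.0523), when the samples were rescaled by median ratios (0.71, limma adjusted p = 0.411) and when ZR75-1 was fitted alone (limma adjusted p = 0.353). In MDA-MB-468 the mean went from 84.3 to 207 FPKM, a ratio of 2.45 and a log2 difference of 1.28 (SE 0.10).

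**Figure D1:**
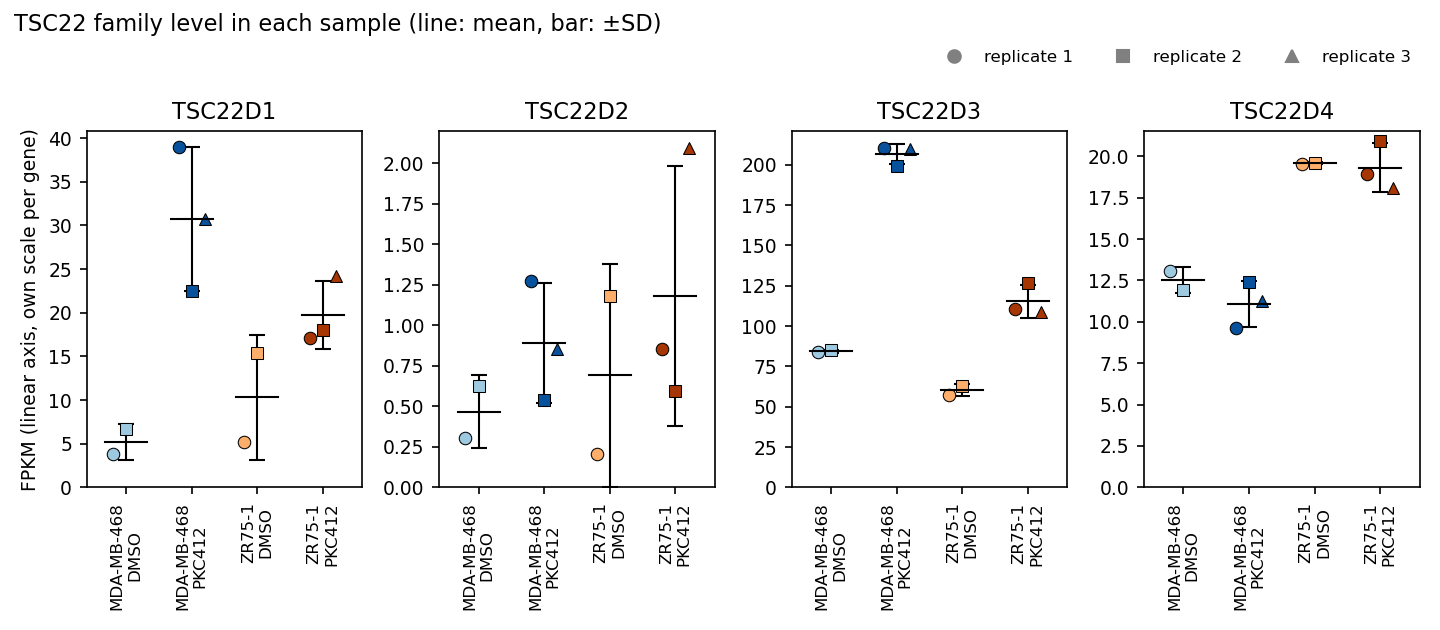
FPKM of the 4 TSC22 genes in each sample (points, shape by replicate number) in the 4 groups, on a linear axis with its own scale for each gene; horizontal lines are means and bars are SD, cut at 0 for TSC22D2. All TSC22D3 and TSC22D1 samples in PKC412 lie above the DMSO samples of the same line, while the TSC22D2 and TSC22D4 samples overlap. Of all genes tested, 39.6% in MDA-MB-468 and 14.8% in ZR75-1 had every PKC412 sample above the DMSO samples.

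TSC22D1, the member first tied to transforming growth factor beta, had the largest ratio of the family. It was at 3.767 and 6.683 FPKM in DMSO-treated MDA-MB-468 cells and at 38.98, 22.47 and 30.75 FPKM after PKC412. The lowest treated sample was well above the highest control. The mean went from 5.23 ± 2.06 (SD, n = 2) to 30.7 ± 8.25 FPKM (SD, n = 3), a ratio of 5.88 and a log2 difference of 2.36 (SE 0.42). By the size of this log2 difference TSC22D1 was gene 46 and TSC22D3 gene 300 of the 16071. TSC22D1 was chosen for its rise in this contrast, so a high place was fixed by the choice and is only a description. In ZR75-1, TSC22D1 was at 5.244 and 15.35 FPKM in DMSO and at 17.06, 18.02 and 24.17 FPKM in PKC412. The groups did not overlap, but the controls lay far apart and the upper control lay just under the lowest treated sample. The ratio of means was 1.92, and the log2 difference of 1.02 (SE 0.42) did not pass the test (limma adjusted p = 0.425). Without ZR75-1 DMSO replicate 1 this difference was 0.33, and without replicate 2 it was 1.72. Samples that do not overlap, with PKC412 higher, were found for 39.6% of all genes tested in MDA-MB-468 and for 14.8% in ZR75-1.

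TSC22D4, the partner of the other members, gave values close together within each line. In MDA-MB-468 it was at 13.07 and 11.95 FPKM in DMSO and at 9.635, 12.40 and 11.25 FPKM in PKC412. In ZR75-1 it was at 19.54 and 19.62 FPKM in DMSO and at 18.92, 20.95 and 18.11 FPKM in PKC412. Treated and control samples overlapped in both lines. The log2 difference was -0.17 (SE 0.13) in MDA-MB-468, and in ZR75-1 it was -0.02 (SE 0.13, limma adjusted p = 0.995).

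TSC22D2 was the least abundant member. It was at 0.3074 and 0.6271 FPKM in DMSO and at 1.275, 0.5408 and 0.8534 FPKM in PKC412 in MDA-MB-468. In ZR75-1 it was at 0.2045 and 1.179 FPKM in DMSO and at 0.8511, 0.5972 and 2.093 FPKM in PKC412. Treated and control samples overlapped in both lines, and the 2 controls of ZR75-1 were themselves far apart. The log2 differences were 0.36 (SE 0.34) in MDA-MB-468 and 0.37 (SE 0.34, limma adjusted p = 0.747) in ZR75-1. At such low levels this scale understates the fold: the ratios of means were 1.90 in MDA-MB-468 and 1.71 in ZR75-1.

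**Figure D2:**
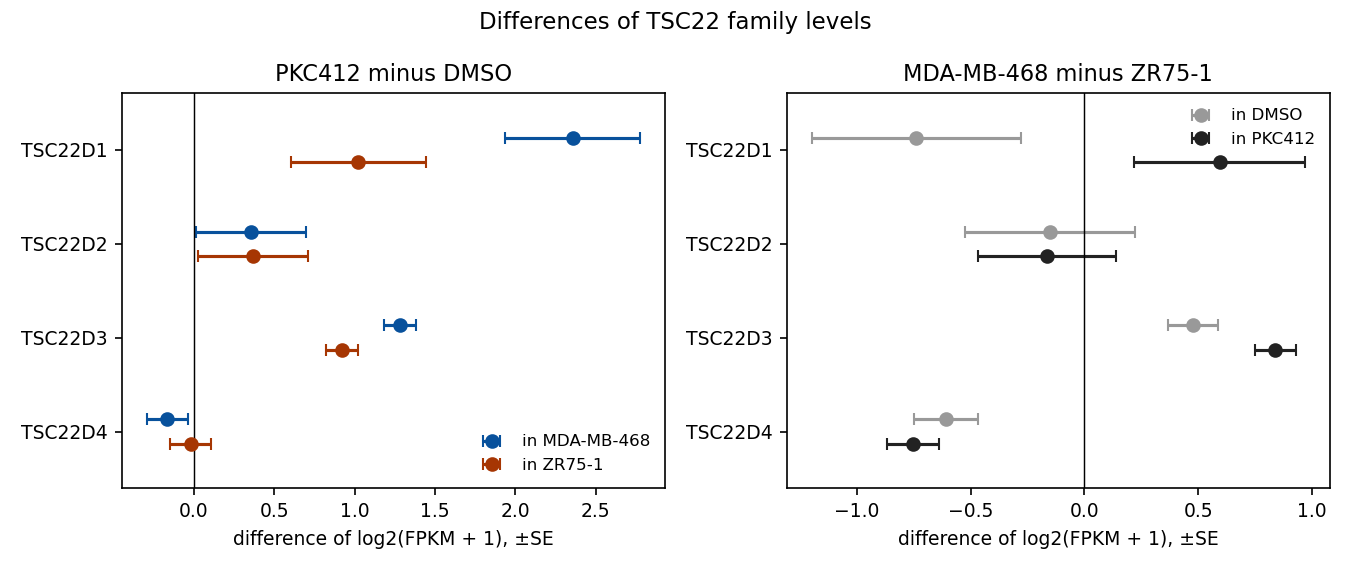
Differences of log2(FPKM + 1) for the 4 genes, PKC412 minus DMSO in each line (left) and MDA-MB-468 minus ZR75-1 in each treatment (right); points are limma estimates and bars are SE. TSC22D1 and TSC22D3 lie to the right of 0 in both lines on the left, and TSC22D3 and TSC22D4 lie on opposite sides of 0 on the right.

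The response of each member was then set side by side between the lines. The log2 difference between the responses, MDA-MB-468 minus ZR75-1, was 1.33 (SE 0.59) for TSC22D1 and 0.36 (SE 0.14) for TSC22D3. It was -0.01 (SE 0.48) for TSC22D2 and -0.14 (SE 0.18) for TSC22D4. These estimates contain the contrast that chose the family and are given as a description. The value of TSC22D1 was 2.03 without ZR75-1 DMSO replicate 1 and 0.64 without replicate 2.

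FPKM is scaled by transcript length, so the members can also be ranked within a sample. In DMSO the order of the mean levels was TSC22D3, TSC22D4, TSC22D1 and TSC22D2 in both lines, and no neighbours in that order overlapped. In PKC412-treated MDA-MB-468 cells TSC22D1 (30.7 FPKM) stood above TSC22D4 (11.1 FPKM), again without overlap. In PKC412-treated ZR75-1 cells TSC22D1 (19.8 FPKM) and TSC22D4 (19.3 FPKM) overlapped. The summed level of the 4 genes was 103 ± 2.26 FPKM (SD, n = 2) in DMSO and 249 ± 13.1 FPKM (SD, n = 3) in PKC412 in MDA-MB-468. In ZR75-1 it was 90.9 ± 11.9 FPKM (SD, n = 2) and 155 ± 9.75 FPKM (SD, n = 3). TSC22D3 made up between 63.6% and 84.9% of that sum in the 10 samples. The mean share of TSC22D1 in MDA-MB-468 was 5.08% in DMSO and 12.2% in PKC412, while that of TSC22D4 was 12.2% and 4.48%. In ZR75-1 the mean share of TSC22D4 was 21.7% in DMSO and 12.4% in PKC412. There the mean share of TSC22D1 was 10.9% in DMSO (6.355% and 15.46% in the samples) and 12.7% in PKC412.

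**Figure D3:**
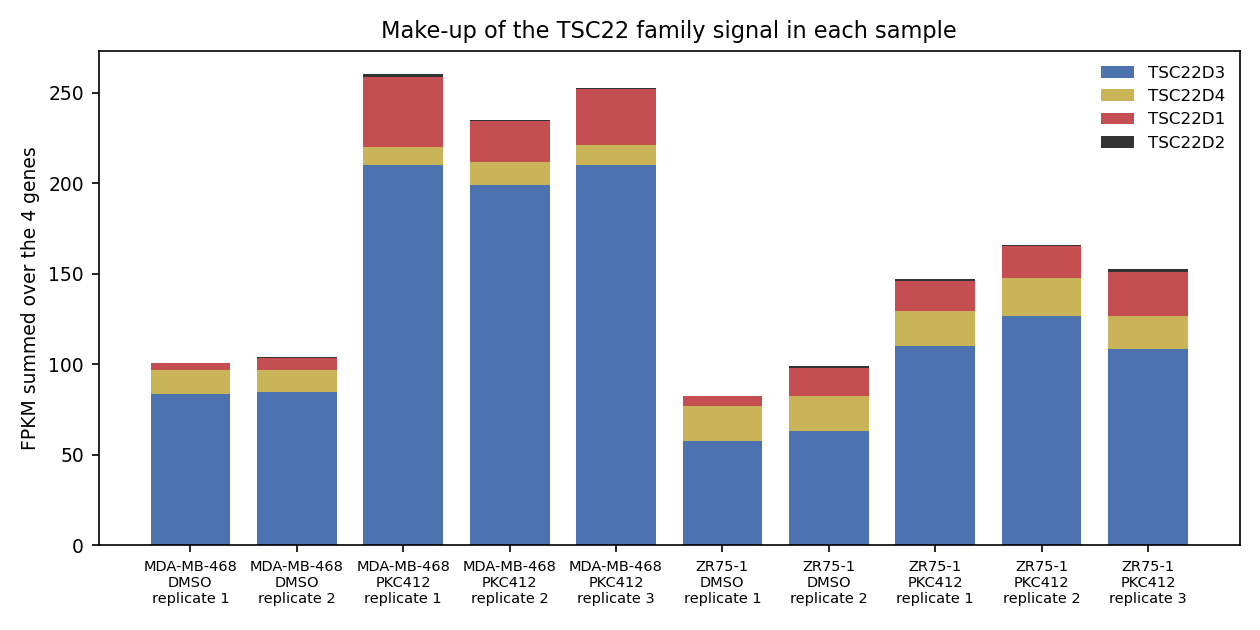
Sum of the FPKM of the 4 TSC22 genes in each sample, stacked by gene from 0. The sums were 100.9 and 104.1 in the DMSO and 234.8 to 260.3 in the PKC412 samples of MDA-MB-468, and TSC22D3 is the largest part of every bar.

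Between the lines, TSC22D3 was higher in MDA-MB-468 and TSC22D4 higher in ZR75-1, whichever the treatment. These contrasts share the MDA-MB-468 samples with the contrast that chose the family. The difference in TSC22D3 was 0.48 (SE 0.11, limma adjusted p = 0.00835) in DMSO, a ratio of 1.40, and 0.84 (SE 0.09, limma adjusted p = 8.96e-05) in PKC412, a ratio of 1.79. TSC22D4 differed by -0.61 (SE 0.14, limma adjusted p = 0.00851) in DMSO, where ZR75-1 was 1.57 times as high, and by -0.75 (SE 0.11, limma adjusted p = 0.000687) in PKC412, where it was 1.74 times as high. The lines differed widely: 42.4% of all genes tested passed in DMSO, 26.5% higher and 15.9% lower in MDA-MB-468, and 58.6% passed in PKC412, 37.0% higher and 21.6% lower. A count of 2 of 4 members, 1 in each direction, is close to that background. Rescaling by median ratios left TSC22D3 at 0.17 in DMSO (limma adjusted p = 0.679) and at 0.41 in PKC412 (limma adjusted p = 0.183), neither past the threshold. It left TSC22D4 at -0.90 in DMSO (limma adjusted p = 0.0509), and without MDA-MB-468 DMSO replicate 2 the value was -0.55 (limma adjusted p = 0.0597). TSC22D1 did not pass the test in either treatment, at -0.74 (SE 0.46, limma adjusted p = 0.242) in DMSO and 0.59 (SE 0.38, limma adjusted p = 0.206) in PKC412. TSC22D1 was chosen for a rise in MDA-MB-468, a choice that favours low DMSO and high PKC412 values there. Its differences between the lines are therefore a description, and their p-values are no support. The TSC22D1 difference in DMSO was -1.43 without ZR75-1 DMSO replicate 1 and -1.01 under median ratios. TSC22D2 differed by -0.15 (SE 0.37, limma adjusted p = 0.793) in DMSO and by -0.16 (SE 0.31, limma adjusted p = 0.666) in PKC412.

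The libraries differed in how FPKM ran with the GC content of the transcripts, and some members moved with it. The slope of log2 FPKM on GC, against the mean of the line, was 0.373 and 0.0573 per 10 percentage points in the DMSO samples of MDA-MB-468 and -0.287, -0.0240 and -0.119 in its PKC412 samples. In this line the slope and the treatment cannot be told apart. Its TSC22D1 values fell in the order of the slope over all 5 samples, from 38.98 FPKM at the lowest slope to 3.767 FPKM at the highest, and TSC22D2 did so except for 1 neighbouring pair. In ZR75-1 the slopes were 0.314 and -0.192 in DMSO and -0.107, 0.342 and -0.356 in PKC412, so the treatments were mixed. ZR75-1 DMSO replicate 1 and PKC412 replicate 2 had similar slopes, and TSC22D1 was at 5.244 and 18.02 FPKM in them and TSC22D3 at 57.53 and 126.7 FPKM. DMSO replicate 2 and PKC412 replicate 1 were also alike in slope. They had 15.35 and 17.06 FPKM of TSC22D1 and 63.12 and 110.4 FPKM of TSC22D3. The longest coding transcript has 49.8% GC in TSC22D1, 44.1% in TSC22D2, 52.8% in TSC22D3 and 65.9% in TSC22D4. Over the genes tested the median was 49.9% and the lower quartile 42.8%. The other coding transcripts of TSC22D1 ran from 42.1% (2877 bases) to 62.2% (690 bases). Those of 2872 and 3135 bases were at 42.3% and 42.55%, and that of 4026 bases at 46.2%. Which transcripts these cells made was not tested, so 49.8% may not describe TSC22D1 here. In an adjustment for GC content and length that was added after the data had been seen, and that in MDA-MB-468 can also take out an effect of the drug running along GC, the log2 difference of TSC22D3 was 1.18 (SE 0.11) for MDA-MB-468 and 0.77 (SE 0.11, limma adjusted p = 0.0115) for ZR75-1. That of TSC22D1 was 2.02 (SE 0.27) and 0.75 (SE 0.27, limma adjusted p = 0.213).

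**Figure D4:**
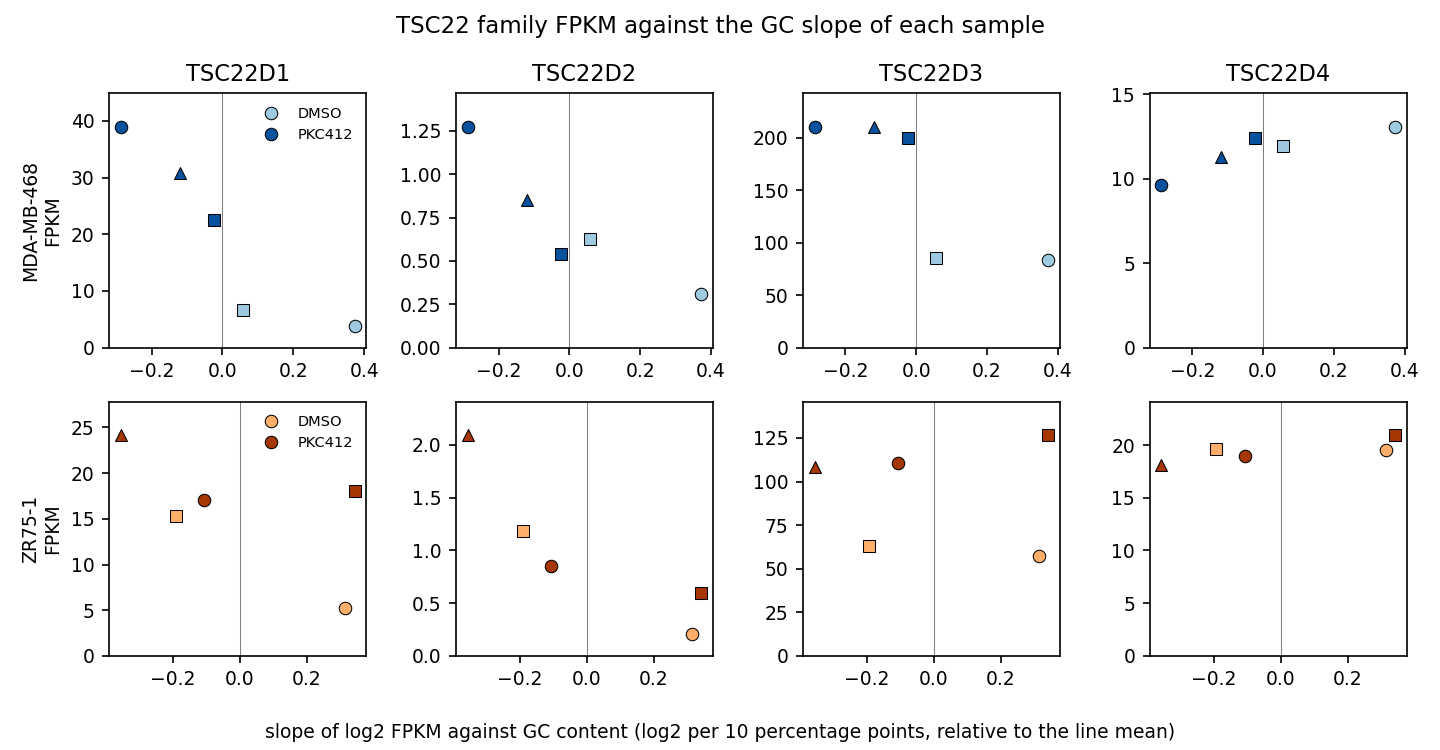
FPKM of each TSC22 gene (vertical axes, from 0) against the slope of log2 FPKM on GC content in the same sample (horizontal axes, per 10 percentage points, relative to the line mean), for MDA-MB-468 above and ZR75-1 below. In MDA-MB-468 TSC22D1 falls from left to right over all 5 samples, while TSC22D3 separates by treatment in both lines.

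The genes whose pattern over the 10 samples was most like each member were found by Pearson's r of log2(FPKM + 1) among 12343 genes. The samples share 2 lines, 2 treatments and the GC slopes, so r is a description. For TSC22D3 they were PER1, a clock gene (r = 0.983), SAT1, the polyamine acetyltransferase (r = 0.976), and GRAMD1B (r = 0.974). PER1 went from 2.18 to 5.41 FPKM with PKC412 in MDA-MB-468 and from 1.63 to 2.95 FPKM in ZR75-1, as means. For TSC22D1 they were IFNGR2, a chain of the interferon gamma receptor (r = 0.972), ACTR3, a subunit of the ARP2/3 actin complex (r = 0.969), and WIPI1 (r = 0.959). The 2 DMSO samples of each line lay far apart in ACTR3. Their mean was 1.67 ± 2.36 FPKM (SD, n = 2) in MDA-MB-468 and 4.81 ± 6.80 FPKM (SD, n = 2) in ZR75-1. For TSC22D4 they were SPR, sepiapterin reductase (r = 0.995), IFITM2 (r = 0.990) and CORO7 (r = 0.990). For TSC22D2 they were C3orf38 (r = 0.985), TMEM131 (r = 0.984) and FBXO28 (r = 0.982). Within the family, r was 0.779 between TSC22D1 and TSC22D3, 0.696 between TSC22D1 and TSC22D2, and -0.621 between TSC22D3 and TSC22D4.

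The receptor and targets of glucocorticoids come first among the genes linked to the family, since TSC22D3 is a known target. Of 15 listed genes 12 passed the filter on low FPKM, and 2 of these rose in MDA-MB-468, SGK1 and PER1, beside 0.691% of all genes tested. SGK1, a serum- and glucocorticoid-induced kinase, was at 0.8271 and 2.044 FPKM in DMSO and at 9.871, 5.567 and 7.618 FPKM in PKC412 (log2 difference 1.85, SE 0.27, limma adjusted p = 0.0182). These SGK1 values fell in the order of the GC slope over all samples of MDA-MB-468, where slope and treatment cannot be told apart. PER1 rose by 1.01 on the log2 scale (SE 0.16, limma adjusted p = 0.0267). Another pair rose in ZR75-1, beside 0.747% of all genes. DUSP1, a phosphatase that acts on MAP kinases, was at 1.452 and 3.783 FPKM in DMSO and at 14.17, 23.35 and 15.57 FPKM in PKC412 (2.42, SE 0.34, limma adjusted p = 0.0199). ANGPTL4, a secreted inhibitor of lipoprotein lipase, rose by 1.20 (SE 0.17, limma adjusted p = 0.0199). None of these 4 passed the test of a difference between the lines, which 0.268% of all genes did. With 1 sample left out, SGK1 (1.48 to 2.22) kept its call in 6 and PER1 (0.95 to 1.09) in 5 of 10 fits, both losing it without MDA-MB-468 DMSO replicate 1, PKC412 replicate 1 or 3 or ZR75-1 PKC412 replicate 1, and PER1 also without DMSO replicate 2. DUSP1 (1.94 to 2.90) kept its call in 4 fits and ANGPTL4 (1.01 to 1.39) in 3, and with each line fitted alone 0 genes of the list passed. The receptor gene NR3C1 was low, at 1.03 to 3.744 FPKM in MDA-MB-468 and 0.4348 to 2.238 FPKM in ZR75-1, and its differences of 0.63 (SE 0.36, limma adjusted p = 0.358) and 0.39 (SE 0.36, limma adjusted p = 0.747) did not pass. The median log2 difference of the 12 genes was 0.45 for MDA-MB-468 and 0.05 for ZR75-1, against 0.11 and 0.07 over all genes tested. Of the 12, 9 had a difference above 0 in MDA-MB-468 and 8 in ZR75-1, so the list did not all move upward.

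FOXO factors and their targets gave 1 call in each line among 14 genes tested, both upward, against 0.691% of all genes in MDA-MB-468 and 0.747% in ZR75-1. PIK3IP1, an inhibitor of PI3 kinase, was at 2.3 and 2.237 FPKM in DMSO and at 6.627, 6.288 and 6.302 FPKM in PKC412 in MDA-MB-468 (1.18, SE 0.17, limma adjusted p = 0.0216). IRS2, an insulin receptor substrate, was at 1.412 and 1.429 FPKM in DMSO and at 8.297, 5.429 and 9.142 FPKM in PKC412 in ZR75-1 (1.81, SE 0.21, limma adjusted p = 0.00916). Neither passed the test of a difference between the lines. IRS2 lost its call without ZR75-1 DMSO replicate 1 (limma adjusted p = 0.0757), and PIK3IP1 (1.16 to 1.19) without either MDA-MB-468 DMSO sample or without PKC412 replicate 1 or 3 (limma adjusted p up to 0.158). FOXO3, the factor tied to TSC22D3, was at 1.113 and 1.914 FPKM in DMSO and at 6.029, 2.981 and 4.305 FPKM in PKC412 in MDA-MB-468, and its difference of 1.09 (SE 0.32, limma adjusted p = 0.191) did not pass. In ZR75-1 its difference was 0.13 (SE 0.32, limma adjusted p = 0.937). The FOXO3 values of MDA-MB-468 fell in the order of the GC slope over all samples, as those of SGK1 did. The median over the list was 0.54 for MDA-MB-468 and 0.20 for ZR75-1, and 12 of the 14 genes had a difference above 0 in each line. Over all genes tested the median was itself above 0, at 0.11 and 0.07, so most genes also lay above 0. Whether the list moved as a set was not tested.

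Genes of transforming growth factor beta signalling, the pathway after which TSC22D1 was named, gave 1 call among 17 genes in MDA-MB-468 and 0 in ZR75-1. At an unadjusted limma p under 0.05 there were 3 and 2, close to the background of 2635 and 1794 of all 16071 genes tested. The gene called in MDA-MB-468 was CTGF, a secreted matrix-associated protein, which fell from 7.404 and 9.305 FPKM in DMSO to 0.8841, 0.6223 and 0.6581 FPKM in PKC412 (-2.44, SE 0.12, limma adjusted p = 8.2e-05), as 0.566% of all genes tested did. SMAD7, the inhibitor in the pathway's feedback, had differences of 0.40 (SE 0.35, limma adjusted p = 0.511) in MDA-MB-468 and 0.52 (SE 0.35, limma adjusted p = 0.642) in ZR75-1. SMAD4, the shared mediator of the pathway, was named after its values were seen: it was at 0.0258 to 0.09985 FPKM in MDA-MB-468 and at 0.9693 to 3.047 FPKM in ZR75-1. The median of the list was 0.05 for MDA-MB-468 and 0.12 for ZR75-1.

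The partners of the long TSC22 proteins gave no call in either line by limma: 0 of 8 NRBP and WNK pathway kinases, 0 of 5 cotransporters and 0 of 5 regulators of WNK kinases. Over all 16071 genes tested, 202 were called in MDA-MB-468 and 152 in ZR75-1. At an unadjusted limma p under 0.05 there were 1, 0 and 1 in MDA-MB-468 and none in ZR75-1. Over all genes tested there were 2635 and 1794, so these counts do not set such short lists apart. The medians of the 3 lists were 0.29, 0.12 and 0.36 for MDA-MB-468 and 0.13, 0.08 and 0.09 for ZR75-1. NRBP1, the pseudokinase partner, was at 57.32 and 60.84 FPKM in DMSO and at 70.79, 63.39 and 70.57 FPKM in PKC412 in MDA-MB-468 (0.20, SE 0.13, limma adjusted p = 0.384). In ZR75-1 it was at 26.65 and 34.08 FPKM in DMSO and at 31.17, 35.78 and 35.67 FPKM in PKC412 (0.17, SE 0.13, limma adjusted p = 0.675). NRBP1 was higher in MDA-MB-468 than in ZR75-1 by 0.95 in DMSO (SE 0.14, limma adjusted p = 0.000853). NRBP2 was at 0.4723 to 3.816 FPKM over the 10 samples, and its differences with PKC412 were 0.54 (SE 0.22, limma adjusted p = 0.284) and 0.48 (SE 0.22, limma adjusted p = 0.464). WNK1, the widely expressed WNK kinase, ranged from 2.019 to 11.93 FPKM, with differences of 0.50 (SE 0.52, limma adjusted p = 0.574) and 0.27 (SE 0.52, limma adjusted p = 0.906). The kinases downstream of it, STK39 (SPAK) and OXSR1 (OSR1), had differences of 0.43 and 0.38 in MDA-MB-468 and -0.09 and 0.27 in ZR75-1, none past the threshold. Among the cotransporters SLC12A7, a potassium-chloride cotransporter named after its values were seen, was at 0.4468 to 0.594 FPKM in MDA-MB-468 and at 8.342 to 9.949 FPKM in ZR75-1.

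**Figure D5:**
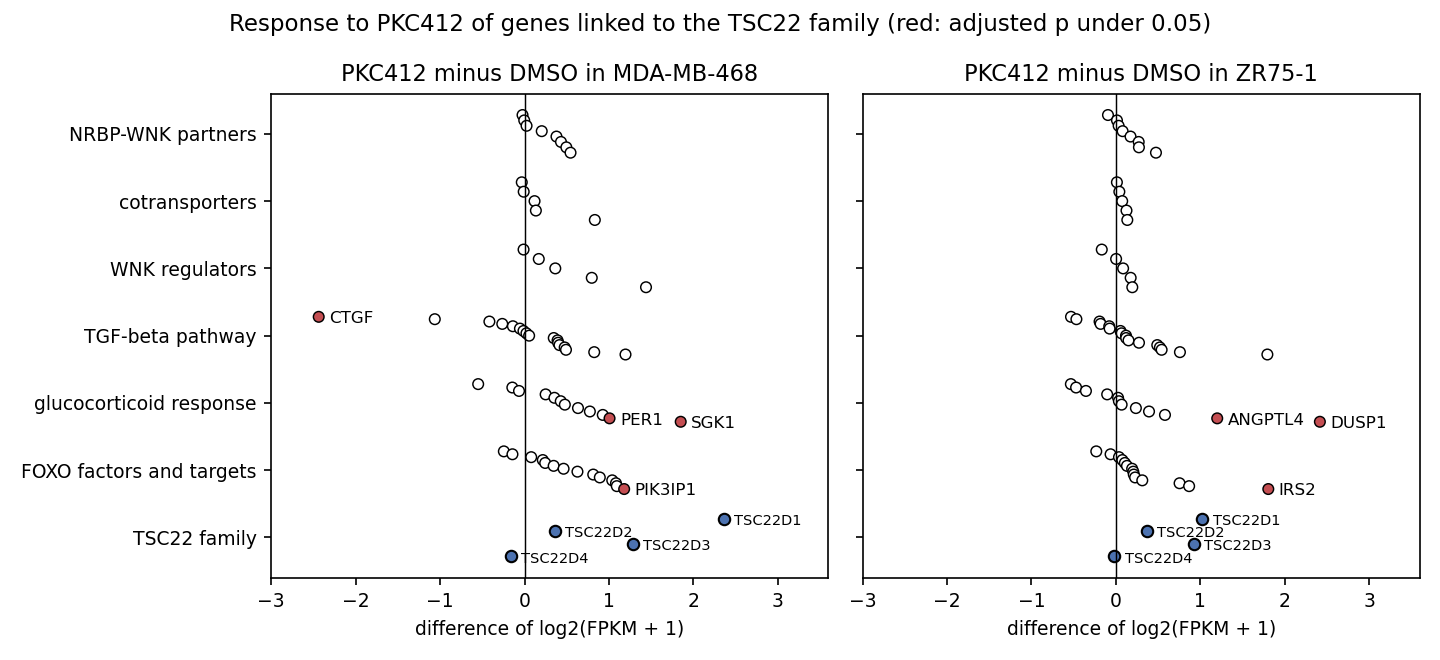
Differences of log2(FPKM + 1), PKC412 minus DMSO, for the genes of 6 lists linked to the TSC22 family (open or red points, red where the limma adjusted p was under 0.05) and for the 4 TSC22 genes (blue, not marked for the test), in MDA-MB-468 (left) and ZR75-1 (right). SGK1, PER1 and PIK3IP1 are the red points above 0 on the left, CTGF is the red point below 0, and DUSP1, ANGPTL4 and IRS2 are red on the right.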

How the data were processed

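RNA of 4 groups was sequenced: each of the 2 cell lines with the solvent (2 libraries) and with PKC412 (3 libraries), for 6 h. The authors deposited FPKM per gene symbol, 1 file per sample. CASAVA 1.82, TopHat2 and hg19 stand in the submitters' processing notes. The methods name an in-house pipeline for FPKM, and its annotation is not given in the sources used here. All files hold the same 23426 genes, and 3193 of them are 0 in every sample. Reads and depth are unknown, and the lowest value above 0 (2.19e-318) is no read count.

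The members and the gene lists were chosen with earlier results of these data known. Differences were fitted with limma 3.58.1 (R 4.3.3) on log2(FPKM + 1), with 4 group means over 10 samples, a trend in eBayes, 6 residual degrees of freedom and Benjamini-Hochberg adjustment at 0.05 over the 16071 genes whose group mean exceeded 0.1 FPKM anywhere. For members, no test was used in the MDA-MB-468 drug contrast or in the difference between lines, where only estimates and standard errors are given. An exact permutation test cannot reach 0.05 with groups of 2 and 3, so none was run. The fit was tested on simulated data. Named were the members, the called genes of each list (at most 4 per line), NR3C1, NRBP1, NRBP2, WNK1, STK39, OXSR1, SMAD7, FOXO3, the design's markers, and the 3 genes most like each member among genes with a group mean above 1 FPKM. SMAD4 and SLC12A7 were added after their values were seen.

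Alternatives were other pseudocounts and filters, 2 rescalings, a replicate block, eBayes without trend, each contrast alone and each sample left out. Adjustment for GC content and length (polynomials of degree 3, GENCODE 29, 88.1% of genes matched by symbol) was added after the data had been seen. Promoters are from RefSeq. Python 3.11.15, pandas 2.3.3, numpy 2.4.6 and matplotlib 3.10.9 were used for the rest.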

Additional observations from a re-analysis of the deposited data

Results flagged for a closer look

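The response of CTGF differed between the lines, by -2.26 on the log2 scale (SE 0.17, limma adjusted p = 0.00195): it was at 8.35 FPKM in DMSO and 0.722 FPKM in PKC412 in MDA-MB-468, and at 0.191 and 0.0515 FPKM in ZR75-1, as means of 2 and 3 samples. Without the pseudocount PKC412 gave 0.0864 of the DMSO level in MDA-MB-468 cells, and 0.269 of it in ZR75-1 cells.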

How the results depend on the processing

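The sign of TSC22D1 and TSC22D3 after PKC412 was the same in both lines under every alternative run. For TSC22D1 in MDA-MB-468 this sign was fixed by the choice of the gene and is no support. In ZR75-1 TSC22D1 went down to 0.33 without DMSO replicate 1. The members' MDA-MB-468 values, not tested, were set against the spread between replicates. TSC22D1 went from 2.36 to 1.79 with a pseudocount of 5 FPKM and lay between 2.01 and 2.70 with a sample left out. TSC22D2 went from 0.36 to 0.79 with a pseudocount of 0.1 FPKM. TSC22D3 went from 1.28 to 1.24 with a pseudocount of 5 FPKM, 0.95 under median ratios, 1.48 with equal FPKM sums and 1.18 after the GC and length adjustment. TSC22D4 went from -0.17 to -0.47 under median ratios, 0.020 with equal sums and 0.033 after that adjustment. In the difference between the lines, TSC22D3 was at 0.23 under median ratios and TSC22D4 at -0.017 after the adjustment, and leaving out samples gave 0.64 to 2.03 for TSC22D1 and -0.44 to 0.41 for TSC22D2. For the tested values, median ratios gave TSC22D3 0.71 for ZR75-1 (0.92 as reported), no longer called. Between the lines TSC22D3 was then at 0.17 in DMSO and 0.41 in PKC412, also no longer called. Median ratios gave TSC22D4 -0.90 and TSC22D1 -1.01 between the lines in DMSO, the second a description because of how TSC22D1 was chosen. Leaving out samples gave 0.85 to 0.99 for TSC22D3 in ZR75-1. Between the lines in DMSO it gave -1.43 to -0.045 for TSC22D1 and -0.67 to -0.55 for TSC22D4. With ZR75-1 alone TSC22D3 stayed at 0.92 but was no longer called. The cause of these changes was not tested. The median of all genes after PKC412 was 0.11 for MDA-MB-468 and 0.07 for ZR75-1, and -0.02 and -0.01 under median ratios. Relative to it TSC22D3 and TSC22D1 stayed above in both lines, which for TSC22D1 in MDA-MB-468 was fixed by its choice.

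The number of genes called was 202 in MDA-MB-468 (111 higher, 91 lower), 152 in ZR75-1 (120 and 32) and 43 for the difference between lines. Median ratios split the MDA-MB-468 calls into 65 higher and 104 lower, and equal sums into 71 and 33. Between the lines in DMSO the split went from 4266 and 2556 to 3525 and 3214, and in PKC412 from 5944 and 3477 to 4488 and 4481. In MDA-MB-468 the count was 116 with a pseudocount of 0.1, 104 with equal sums, 81 with the line alone and 579 after adjustment for GC content and length. In ZR75-1 it was 12 with the line alone and 452 after that adjustment. For the difference between lines it was 27 and 72 with pseudocounts of 0.1 and 5, 68 without a filter or without the trend, 28 with equal sums and 210 after the adjustment. Leaving out samples gave 65 to 324, 59 to 183 and 16 to 64 calls.

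The deviations of same-numbered DMSO and PKC412 samples had r of -0.18 and -0.13 within MDA-MB-468, and -0.02 and -0.39 within ZR75-1. With 2 DMSO samples per line their deviations mirror each other, so this check cannot decide whether samples were paired. The numbers are therefore not shown to pair samples. With a replicate block, on 2 residual degrees of freedom, 0 genes were called by limma in any of the 3 contrasts, against 703, 589 and 445 at an unadjusted p under 0.05. Under the replicate block TSC22D1 was at 2.34 in MDA-MB-468 and TSC22D3 at 1.27 for MDA-MB-468 and 0.96 for ZR75-1, the last not called. With the replicate block and the GC and length adjustment together these were 2.02, 1.19 and 0.86, TSC22D4 was at 0.037 in MDA-MB-468 and 0.043 in the difference between the lines, and 3, 3 and 0 genes were called. No block could be fitted between the lines, and no contrast-alone fit for the difference between lines.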
